A study of Mus musculus with 30 samples.

Results

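The spread of gene expression between mice was examined in hindlimb muscle kept on a repeatedly shifted light-dark schedule. All 16 libraries of the ADV group were taken, out of 30 libraries in all, and the variability of each gene among them was set beside its variability among the 14 libraries of the LD group. Every mouse was a wild-type male C57BL/6J mouse that was 14 weeks old at the start and lived alone in a cage with a running wheel. In the ADV group the light-dark cycle was advanced by 8 hours every 4 days for 64 weeks, whereas the LD group stayed on a cycle that never moved. All mice had first spent a period in constant darkness, and 2 LD mice were lost before sampling. Each library held poly(A)-enriched RNA from the gastrocnemius of 1 mouse, together with the plantaris. The tissue was taken over most of the light period, at a time when the cycles of both groups coincided. The hour at which each mouse was taken was not used here. A gene was kept when its reads averaged more than 20 per library and its FPKM (fragments per kilobase of exon, scaled to library size) averaged more than 0.5, which left 12030 genes.

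Skeletal muscle is a mixture of slow, oxidative fibers and fast fibers, together with nerve, fat, vessel and immune cells, and it holds its own circadian clock. In the clock, BMAL1 and CLOCK bind E-boxes and drive repressors such as the PER proteins and REV-ERBα, so that the level of each clock gene depends on the hour at which a muscle is taken. Other genes answer within minutes or hours to contraction, heat, feeding, glucocorticoids or interferon, and such genes can differ widely between animals of 1 group.

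The libraries were alike in depth, with 18875468 to 25699604 reads on exons in ADV and 19015401 to 28512674 in LD. Their spread of depth did not pass the permutation test (two-sided p = 0.631). The share of the library on exons was 91.5% ± 0.373 (SD, n = 16) in ADV and 91.2% ± 0.119 (SD, n = 14) in LD. That share lay further from the group median in ADV, at 0.221 against 0.0829 percentage points on average, which did not pass the test (permutation p = 0.078). The exon share itself was higher in ADV (permutation p = 6.0e-05), also without ADV25 and ADV34 (91.4% ± 0.162, n = 14, permutation p = 6.0e-05), and its part in the differences between the groups was not tested. The mouse ADV34 had the highest exon share at 92.7% and ADV25 the next at 92.04%. ADV34 also held 12.5% of the squared deviations of its group and was the mouse farthest from the group mean in 29.6% of genes. In LD, the mice LD33 and LD23 held 13.4% and 12.95% of the squared deviations of their group. Many results that rest on these mice are given with and without them, but a value given with all mice alone may also depend on them.

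**Figure D1:**
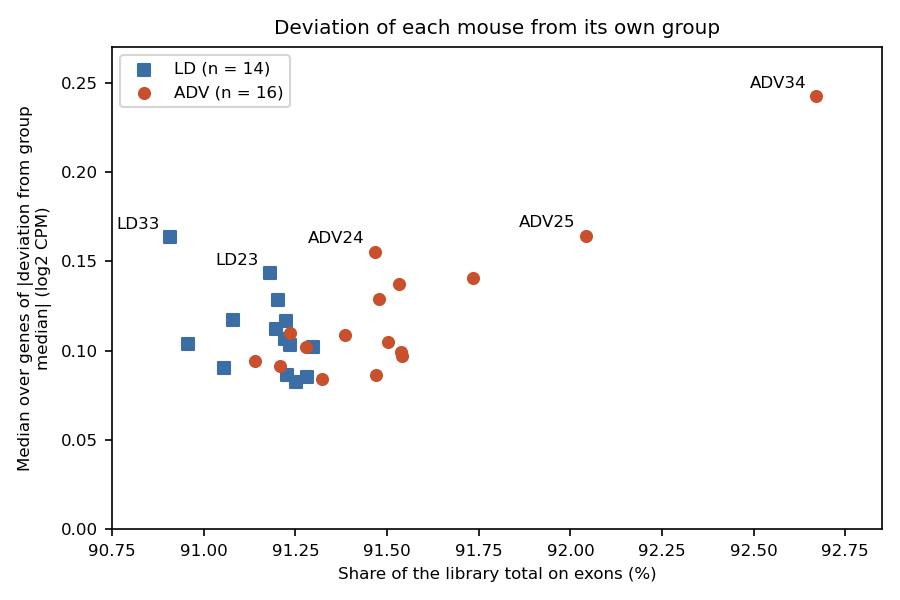
The horizontal axis gives the share of each library on exons (percent) and the vertical axis the median over genes of the absolute deviation of a mouse from its group median (log2 CPM). Each point is 1 mouse, and ADV34 stands apart at 92.7% and 0.242, followed by ADV25 at 92.04% and 0.164, while LD33 and LD23 lead the LD group at 0.163 and 0.143.

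The median gene varied slightly more between ADV mice than between LD mice, and no single gene passed the test for a difference in spread. The SD of log2 CPM (counts scaled to library size) had a median of 0.199 in ADV and 0.176 in LD, a ratio of 1.12, and 7561 genes (62.9%) had the larger SD in ADV. Limma on absolute deviations from the group median called 0 genes higher and 0 lower at an FDR under 0.05 (0% in each direction), and the smallest FDR was 0.688. At an unadjusted p under 0.05 it gave 517 genes with a larger spread in ADV (4.3%) and 245 with a smaller spread (2.04%), or 140 without LD33. The Fligner-Killeen rank test and squared deviations also called 0 genes, with 475 and 524 higher and 249 and 268 lower at that unadjusted p. An SD ratio over 2 was seen in 686 genes (5.7%) and one under 0.5 in 107 genes (0.889%). The shift of the median gene rested on single mice: the median log2 SD ratio was 0.16 with every mouse, 0.07 without ADV34, and -0.005 without ADV34 and ADV25, when 310 genes were higher and 351 lower.

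By contrast, the mean differed in 1301 genes (10.8%) with edgeR's quasi-likelihood test at an FDR under 0.05, 675 of them higher in ADV (5.61%) and 626 lower (5.2%). These counts were 439 and 396 without LD28, and 418 and 327 without ADV25 and ADV34. Of the 762 genes (6.33%) with an unadjusted p under 0.05 for spread, 124 were also called for the mean at that FDR, beside 10.8% of all genes. The other 638 were not called for the mean, which does not show that their means were equal. Of these, 410 had a larger and 228 a smaller spread in ADV. The genes named next are the 10 with the smallest p for spread in each direction among genes whose direction held without each single mouse. None of them passed the test after adjustment.

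Adnp2, a homeobox zinc finger gene, had the smallest p of any gene. Its FPKM was 0.719 to 1.68 in ADV (median 1.03) and 1.05 to 1.34 in LD (median 1.16). Of the ADV mice, 4 lay above every LD mouse and 8 lay below every LD mouse. The SD was 0.394 in ADV and 0.101 in LD, a log2 SD ratio of 1.97 ± 0.33 (jackknife SE, n = 16 and 14) with an unadjusted p of 5.7e-05 and an FDR of 0.688 by limma. The log2 difference in mean was -0.08 ± 0.11 (SE, edgeR FDR = 0.65).

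Fryl, which encodes a large homolog of the furry protein, ranged from 1.602 to 3.91 FPKM in ADV (median 2.71) and from 2.69 to 3.32 in LD (median 3.17). In ADV, 7 mice lay below the lowest LD mouse and 2 above the highest, with ADV34 lowest and ADV27 highest. The SD ratio on the log2 scale was 1.85 ± 0.49 (p = 1.8e-04, FDR = 0.77), and 1.55 without ADV25 and ADV34. Wee1, the kinase that holds CDK1 inactive and a known clock output, ranged from 0.333 to 1.43 FPKM in ADV (median 0.669) and from 0.381 to 0.725 in LD (median 0.632). ADV24, ADV32, ADV25 and ADV21 each had over 1.3 FPKM, 7 ADV mice exceeded every LD mouse and 2 lay below them all. For Wee1 the log2 SD ratio was 1.57 ± 0.52 (p = 2.1e-04, FDR = 0.77), at a mean of 59.7 reads.

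Epha2, an ephrin receptor, ranged from 0.498 to 1.58 FPKM in ADV (median 0.873) and from 0.625 to 0.911 in LD (median 0.766). In ADV, 8 mice lay above the LD range and 4 below it, with ADV21 and ADV24 highest, and the log2 SD ratio was 1.73 ± 0.41 (p = 7.4e-04). Ecpas, a proteasome adaptor, differed in shape: ADV34, ADV24 and ADV25 were low at 30.3, 31.5 and 32.5 FPKM, against an ADV median of 40.0 and an LD range of 39.5 to 44.4. On the log2 scale its SD ratio was 2.06 ± 0.43 (p = 8.9e-04), and it was 1.14 once each library's trend with GC content had been removed.

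Gprasp1, which encodes a sorting protein for receptors, had a log2 SD ratio of 1.50 ± 0.44 and ranged from 3.82 to 6.14 FPKM in ADV and from 4.57 to 5.57 in LD. Cdk8, the kinase of the Mediator complex, had 1.53 ± 0.70, with 5 ADV mice above and 3 below the LD range. Spsb3 (1.74 ± 0.47) and Ugt1a6b (1.34 ± 0.49) completed the genes of smallest p, but their reads are uncertain. Of the exon bases of Spsb3, 66.2% overlap Eme2 on the other strand, and Ugt1a6b shares 66.1% of its exon bases with Ugt1a1 and other Ugt1a genes on its own strand.

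Nr1d1 encodes REV-ERBα, the nuclear receptor that represses Bmal1, and was the 1 gene of larger spread among these 10 whose mean also passed the test. It ranged from 8.80 to 83.1 FPKM in ADV (median 26.6) and from 37.0 to 108 in LD (median 67.0). As many as 10 ADV mice lay below the lowest LD mouse, led by ADV22, ADV24 and ADV23, whereas ADV30, ADV36, ADV35 and ADV27 lay within the LD range at 57.9 to 83.1. With a log2 SD ratio of 1.46 ± 0.37 (p = 6.4e-04, FDR = 0.77), Nr1d1 also differed in mean by -0.996 ± 0.293 on the log2 scale (edgeR FDR = 0.028). The exons of Nr1d1 overlap those of Thra on the other strand over 52.3% of their bases.

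**Figure D2:**
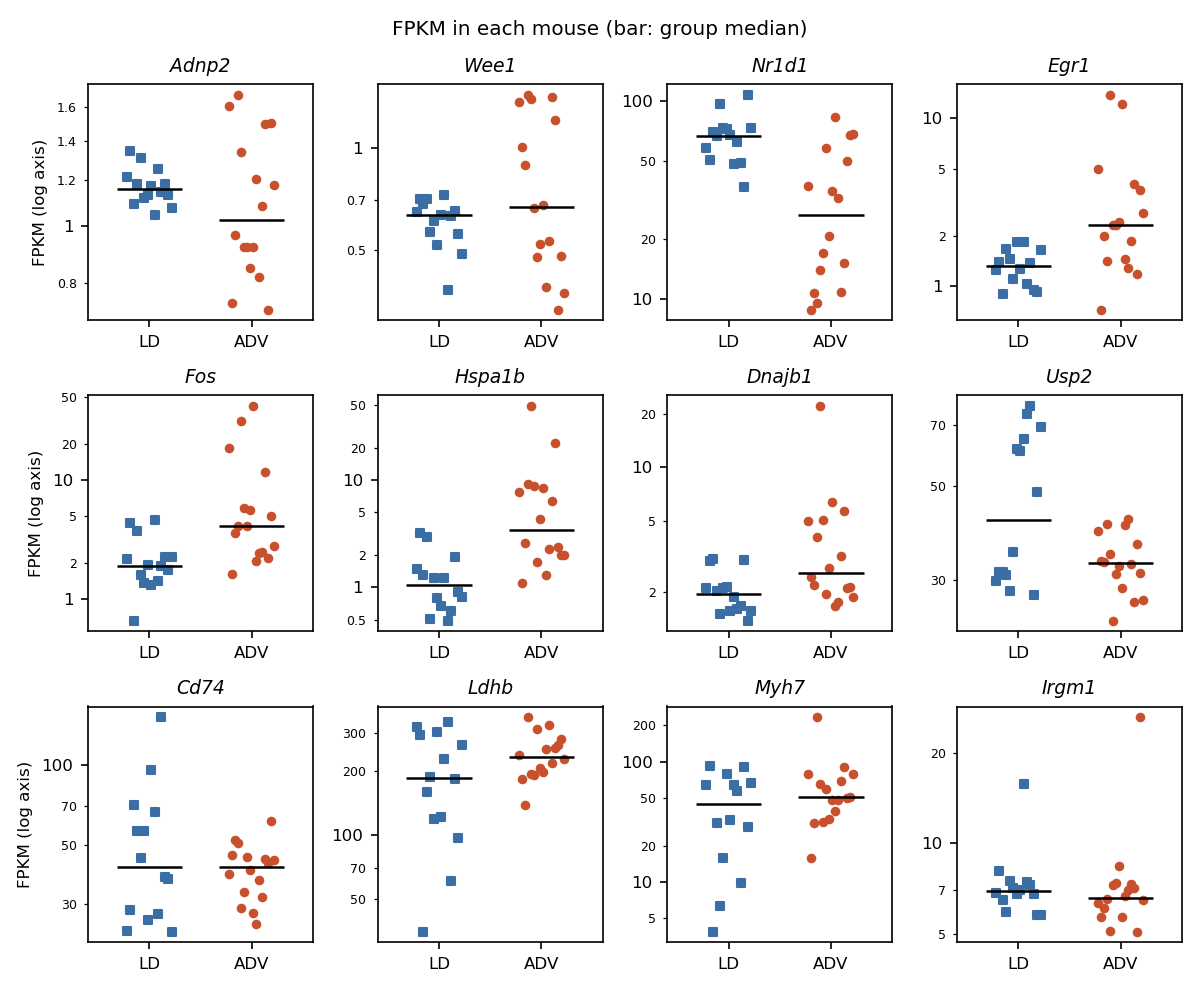
Each panel is 1 gene, with the group on the horizontal axis and FPKM on a log vertical axis. Points are single mice (14 LD, 16 ADV) and the bar is the group median. The points of Adnp2, Wee1 and Nr1d1 are more scattered in ADV, and those of Usp2 and Ldhb are more scattered in LD.

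Among the named genes of smaller spread in ADV, Usp2, a deubiquitinase under clock control, had the smallest p. It ranged from 23.97 to 41.8 FPKM in ADV (median 32.8) and from 27.7 to 77.6 in LD (median 41.7). The highest ADV mouse was exceeded by 7 LD mice. The log2 SD ratio was -1.36 ± 0.24 (p = 3.6e-04, FDR = 0.77), and the mean fell by 0.55 on the log2 scale (edgeR FDR = 0.021). Once the linear fit of each gene on a clock score had been removed within each group, the log2 SD ratio was -0.29. That score is the mean log2 CPM of 7 genes that peak with Bmal1 minus that of 12 genes that peak when Bmal1 is low. Usp2 is 1 of these 12, so part of the change follows from how the score was built.

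LD23 and LD33 were the lowest 2 LD mice for Ldhb, Mdh1, Immt and Rtn4ip1, which encode metabolic or mitochondrial proteins. Ldhb, the lactate dehydrogenase subunit of oxidative fibers, ranged from 138 to 356 FPKM in ADV (median 233) and from 35.2 to 337 in LD (median 185). In LD, 5 mice lay below the lowest ADV mouse. In Ldhb the log2 SD ratio was -1.51 ± 0.51 (p = 0.0027), and -0.80 without ADV34, LD23 and LD33. For Mdh1, cytosolic malate dehydrogenase, the log2 SD ratio was -1.09 ± 0.52 and became -0.66 without those 3 mice. In Immt, which organizes mitochondrial cristae, it was -0.92 ± 0.61 with all mice and -0.75 without them. Rtn4ip1, a mitochondrial oxidoreductase, had -1.38 ± 0.46 and -0.97.

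Alpl, tissue-nonspecific alkaline phosphatase, ranged from 5.13 to 8.06 FPKM in ADV (median 6.48) and from 2.25 to 8.66 in LD (median 5.29). In LD, 7 mice lay below every ADV mouse, with LD33 and LD23 lowest, and the log2 SD ratio was -1.70 ± 0.50 (p = 7.5e-04), or -1.12 without ADV34, LD23 and LD33. H2-Ab1, an MHC class II chain, had a log2 SD ratio of -1.23 ± 0.47, or -0.89 without ADV34, LD23 and LD33. It reached 60.9 FPKM in LD33, whereas no ADV mouse exceeded 29.3. Trmt2b, a tRNA methyltransferase, and Vopp1 had ratios of -1.07 ± 0.51 and -1.09 ± 0.36. Mir5107 (-1.45 ± 0.34) lies wholly within an exon of Cd74, so its reads cannot be told from those of Cd74.

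The clock genes did not vary together in ADV as closely as in LD. Over the 12 genes that peak when Bmal1 is low, the mean correlation between pairs of genes was 0.16 in ADV, and 0.08 to 0.19 when each mouse was left out. In LD it was 0.61, and 0.54 to 0.65 with each mouse left out. Over all genes tested the mean correlation was 4.4e-04 in ADV and 6.8e-04 in LD. These correlations describe genes of the same libraries and were not tested.

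The spread of these 12 clock genes was not uniform. Their median log2 SD ratio was -0.18 (0.16 over all genes), and 8 had a lower mean in ADV (5.2% of all genes). At the unadjusted p, 1 gene had a larger and 2 a smaller spread (4.3% and 2.04% of all genes). Dbp, a PAR bZIP factor with a strong daily rhythm, ranged from 3.98 to 17.8 FPKM in ADV (median 8.24) and from 3.36 to 56.9 in LD (median 25.4). In LD, 10 mice lay above the highest ADV mouse. LD34 lay below the lowest ADV mouse at 3.36 FPKM, and the next lowest LD mouse was at 11.7. The mean of Dbp fell by 1.66 on the log2 scale (SE 0.255, edgeR FDR = 4.8e-04). Its log2 SD ratio of -0.96 ± 0.66 had an unadjusted limma p of 0.074 and may depend on LD34. Dbp shares 15.5% of its exon bases with Sphk2 on the other strand. For Ciart, a repressor of CLOCK and BMAL1, the ratio was -0.35 ± 0.43 and the mean fell by 1.86 (FDR = 0.0038), with ADV25 highest of its group at 4.91 FPKM and the ADV median at 0.832. Once the fit on the clock score had been removed from every gene the median of the list was 0.45. The score is built from these 12 genes and the 7 that peak with Bmal1, so this change is partly set by construction. The 7 genes that peak with Bmal1 had a median of 0.004 and mean correlations of 0.19 and 0.22, and 4 had a higher mean in ADV.

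The promoters of clock genes were searched for E-boxes. RefSeq promoters on GRCm38.p6, taken as the 250 bases before the start, were available for 8971 of the genes tested (74.6%). The letters CACGTG (its own reverse complement) were in 8.73% of them and in 4 of the 11 promoters of the clock genes that peak when Bmal1 is low, those of Tef, Per1, Ciart and Bhlhe41. The promoter of Ciart is shown because it held 3 such matches (capitals), at chr3:95882229-95882478 on the minus strand.
Ciart: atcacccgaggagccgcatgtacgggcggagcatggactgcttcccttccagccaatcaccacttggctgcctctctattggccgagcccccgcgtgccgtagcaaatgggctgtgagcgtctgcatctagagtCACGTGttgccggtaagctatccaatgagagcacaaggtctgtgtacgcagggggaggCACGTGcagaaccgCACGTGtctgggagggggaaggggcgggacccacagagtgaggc

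Immediate early genes and heat shock genes had median SD ratios above that of all genes. These are genes of fast responses, the former encoding transcription factors such as FOS and EGR1 and the latter chaperones. Of 24 immediate early genes tested, 18 had the larger SD in ADV, 4 with an unadjusted p under 0.05 and 0 in the other direction, and the median log2 SD ratio was 0.37. Over all genes 62.9% had the larger SD in ADV and 4.3% were higher at that p, with a median of 0.16. Of 21 heat shock genes, 16 had the larger SD in ADV, 4 higher and 1 lower at that p, and the median was 0.48. In both lists many means were higher too, 12 immediate early and 11 heat shock genes at an edgeR FDR under 0.05 (5.61% of all genes).

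Egr1 ranged from 0.726 to 13.7 FPKM in ADV (median 2.32) and from 0.899 to 1.83 in LD (median 1.32). ADV25 and ADV29 were far above the rest at 13.7 and 12.1, 11 ADV mice exceeded every LD mouse, and ADV22 lay below them all. The log2 SD ratio was 1.72 ± 0.38 (p = 0.0053, FDR = 0.77) and the mean was higher by 1.46 ± 0.35 (FDR = 0.0091). Fos ranged from 1.61 to 41.5 FPKM in ADV (median 4.10) and from 0.660 to 4.57 in LD (median 1.91), with ADV29, ADV25, ADV21 and ADV33 highest. The ratio for Fos was 0.96 ± 0.46 (p = 0.065), and its mean was higher by 2.01 ± 0.46 (FDR = 0.0069).

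Hspa1b, an inducible HSP70 gene, ranged from 1.09 to 48.8 FPKM in ADV (median 3.44) and from 0.488 to 3.18 in LD (median 1.06). ADV25 and ADV33 led at 48.8 and 22.4, and 8 ADV mice exceeded the highest LD mouse. Hspa1b had a log2 SD ratio of 0.88 ± 0.41 (p = 0.10) and a mean that was higher by 2.67 ± 0.51 (FDR = 0.0022). Hspa1a, a nearly identical copy, had a ratio of 1.03 ± 0.42, and reads could have been split between these copies, so neither value is certain on its own. Dnajb1, an HSP70 cochaperone, had a ratio of 1.41 ± 0.62, with 22.1 FPKM in ADV25 and 2.57 at the ADV median. ADV25 held 54.0% of its squared deviations, and the ratio was 0.88 without ADV25 and ADV34. Hspb1, the small heat shock protein HSP27, ranged from 81.2 to 320 FPKM in ADV and from 72.4 to 134 in LD, and 12 ADV mice lay above the LD range.

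The heat shock promoters are shown for the recognition units of heat shock factor. A pair of inverted units, GAANNTTC (its own reverse complement), was in 4.88% of the promoters tested and in 6 of 17 heat shock promoters (35.3%). That pair was searched after the longer form with a further GAA unit, found in 0.368% of promoters on either strand, had matched 1 of the 17. Both copies of the HSP70 gene carried the pair (capitals), at chr17:34959239-34959488 for Hspa1b and at chr17:34972157-34972406 for Hspa1a, on the minus strand of GRCm38.p6.
Hspa1b: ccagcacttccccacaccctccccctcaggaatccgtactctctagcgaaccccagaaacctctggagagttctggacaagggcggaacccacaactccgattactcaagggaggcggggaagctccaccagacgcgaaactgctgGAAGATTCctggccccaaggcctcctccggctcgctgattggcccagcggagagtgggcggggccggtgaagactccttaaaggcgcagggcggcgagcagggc
Hspa1a: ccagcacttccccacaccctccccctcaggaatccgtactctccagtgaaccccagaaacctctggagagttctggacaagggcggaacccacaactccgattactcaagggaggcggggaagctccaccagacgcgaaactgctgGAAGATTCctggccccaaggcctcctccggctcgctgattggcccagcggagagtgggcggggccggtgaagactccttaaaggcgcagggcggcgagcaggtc

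Clustering of the 300 genes with the largest ADV variance for their level gave 12 modules of at least 8 genes. The modules were built from the values they describe and so carry no test. Their genes were picked for a large ADV variance and grouped by their correlation in ADV. That choice favors SD ratios over 1 and a higher correlation in ADV than in LD. The response genes formed a module of 50, led by Otud1, Hspa1a, Hspa1b, Abra and Atf3, and it held 10 of the immediate early and 7 of the heat shock genes. Its mean pairwise correlation was 0.68 in ADV and 0.35 in LD, and 0.60 in ADV without ADV25. In standardized units the module was highest in ADV25 (1.76), ADV33 (1.11) and ADV24 (0.85) and lowest in ADV22 (-1.02), ADV27 (-0.95) and ADV31 (-0.84). Of its 50 genes, 41 had an SD ratio over 1 (62.9% of all genes). A higher mean in ADV at an edgeR FDR under 0.05 was seen in 32 (5.61% of all genes). Otud1, a deubiquitinase, ranged from 3.58 to 116 FPKM in ADV (median 8.01), with ADV25 highest.

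Fos and Hspa1b, 1 gene of each kind, are both in that module, so their correlation is no separate support for it. A set of 8 genes, each standing for a program, gave 28 pairs over the 16 ADV mice. These genes were chosen with earlier results of these data known. Fos and Hspa1b had r = 0.77 (permutation p = 7.6e-04, adjusted 0.016) and rho = 0.78 (adjusted 0.018), and r was 0.72 without the 2 mice farthest from the median of Fos. In LD, r was 0.52. Without ADV25 r was 0.68 with an adjusted p of 0.056, which no longer passed, and without ADV25 and ADV34 the adjusted p was 0.089.

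**Figure D3:**
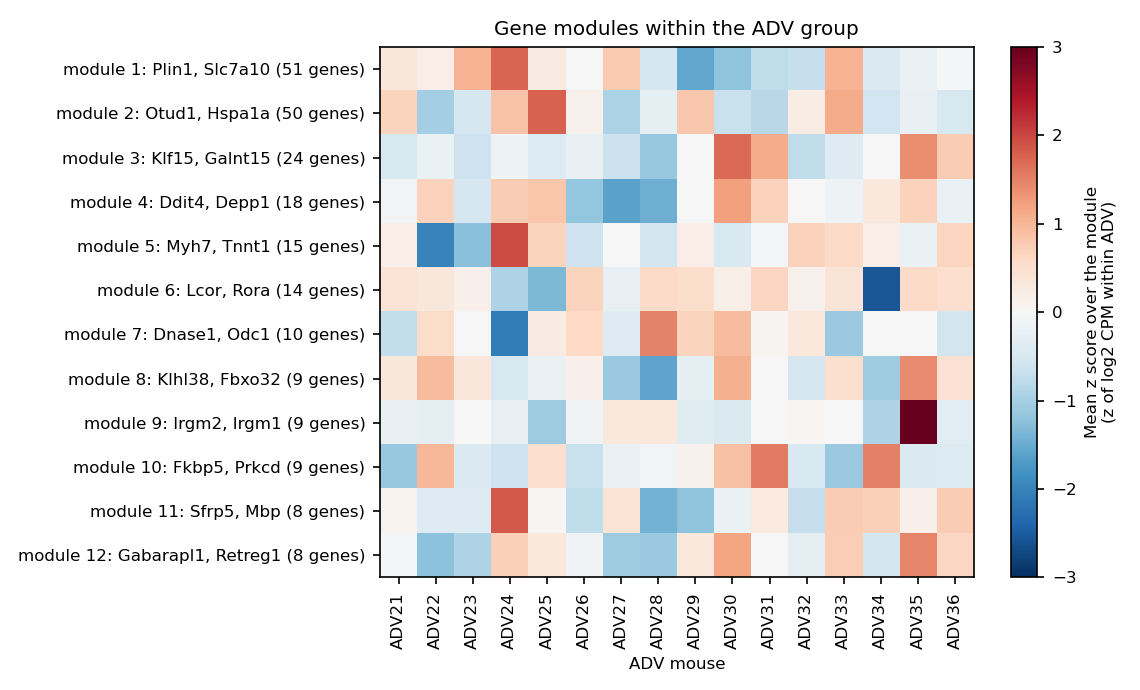
Rows are the 12 modules with their gene numbers and 2 of their 5 central genes, columns are the 16 ADV mice, and color gives the mean standardized log2 CPM of the module (SD units, with the color ending at 3 and -3). ADV25 is high in the response module, ADV34 low in the module of Lcor and Rora, ADV24 high in the modules of Plin1, of Myh7 and of Mbp, and ADV35 high in the module of Irgm2 and Irgm1.

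Most slow fiber genes had a smaller SD between ADV mice than between LD mice. They encode the contractile proteins of oxidative fibers, and in bulk muscle fewer cells of a type and less RNA per cell cannot be told apart. Of 13 slow fiber genes, 11 had the smaller SD in ADV, 4 of them less than 0.5 of that in LD (0.889% of all genes). The median log2 SD ratio was -0.73, but 1 gene had an unadjusted p under 0.05. Over all genes 62.9% had the larger SD in ADV, and 2.04% were lower at that p. The summed level of the list was 376 to 2571 FPKM in ADV and 81.2 to 1337 in LD. LD23 was lowest in LD: the median of the list was -0.50 without it, -1.03 without ADV24, and -0.15 without ADV34, LD23 and LD33.

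Myh7, the slow myosin heavy chain, ranged from 15.7 to 233 FPKM in ADV (median 50.4) and from 3.88 to 91.7 in LD (median 44.7). ADV24 was highest and ADV22 lowest in ADV, and 3 LD mice lay below the lowest ADV mouse. The log2 ratio of SDs was -0.81 ± 0.52 (p = 0.052), and Mhrt overlaps 24.6% of its exon bases on the other strand. Myoz2, a Z-disc protein of slow fibers, had a ratio of -1.40 ± 0.87 that became -0.01 without ADV34, LD23 and LD33, and Myl2, the slow regulatory light chain, had -1.24 ± 0.62 and -0.06. The fast fiber genes had a median of 0.06, with 8 of 14 larger in ADV (62.9% of all genes). The 1 gene among them with an unadjusted p under 0.05 was Myh2, the fast oxidative myosin, at -1.25 ± 0.61, or -0.26 without the same 3 mice.

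Within ADV, 8 of the slow fiber genes were in a module of 15 led by Myh7, Tnnt1 and Tnnc1. Its mean correlation was 0.79 in ADV and 0.81 in LD. The module was highest in ADV24 (1.96) and lowest in ADV22 (-2.005) and ADV23 (-1.24).

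Most genes of the nuclear-encoded respiratory chain also had smaller SDs in ADV. Of 16 genes, 13 had the smaller SD, 6 of them at an unadjusted p under 0.05 and 0 in the other direction, with a median log2 SD ratio of -0.50, which was -0.77 without ADV34 and -0.30 without LD23. Over all genes 62.9% had the larger SD in ADV and 2.04% were lower at that p. A higher mean in ADV at an edgeR FDR under 0.05 was seen in 5 of the 16 (5.61% of all genes), and a lower one in 0. Sdha, a subunit of succinate dehydrogenase, ranged from 269 to 351 FPKM in ADV (median 297) and from 223 to 345 in LD (median 284). In LD, 5 mice lay below the lowest ADV mouse. The log2 SD ratio was -1.10 ± 0.49 (p = 0.0039, FDR = 0.77), and -0.78 without ADV34, LD23 and LD33. Ndufs1, of complex I, had -1.06 ± 0.64, and -0.64 without ADV34, LD23 and LD33. The mean correlation of the list was 0.77 in ADV and 0.93 in LD. The 13 genes of the mitochondrial genome had a median of -0.09, and 0.19 without LD23.

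Macrophage and antigen presentation genes also had smaller SDs in ADV, and less so without 1 LD mouse. Of 16 genes, 15 had the smaller SD in ADV, where 62.9% of all genes had the larger. At an unadjusted p under 0.05, 4 were lower (2.04% of all genes). The median of these genes was -0.51, and -0.15 without LD33. Their summed level was 146 to 307 FPKM in ADV and 153 to 601 in LD. Cd74, the MHC class II invariant chain, ranged from 25.2 to 61.7 FPKM in ADV (median 41.5) and from 23.6 to 151 in LD (median 41.3), with LD33 highest. Cd74 had a log2 SD ratio of -1.31 ± 0.42 (p = 0.0042), and -0.95 without ADV34, LD23 and LD33. The 3 immunoglobulin genes tested had a median of -0.35, or -0.13 without LD30. Of these 3, 2 had a lower mean in ADV at an edgeR FDR under 0.05 (5.2% of all genes). Igkc, the kappa light chain constant region, reached 8.82 FPKM in ADV and 61.5 in LD, where 1 mouse was listed at 0, and Gm68839 overlaps 97.9% of its exon bases on the other strand.

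**Figure D4:**
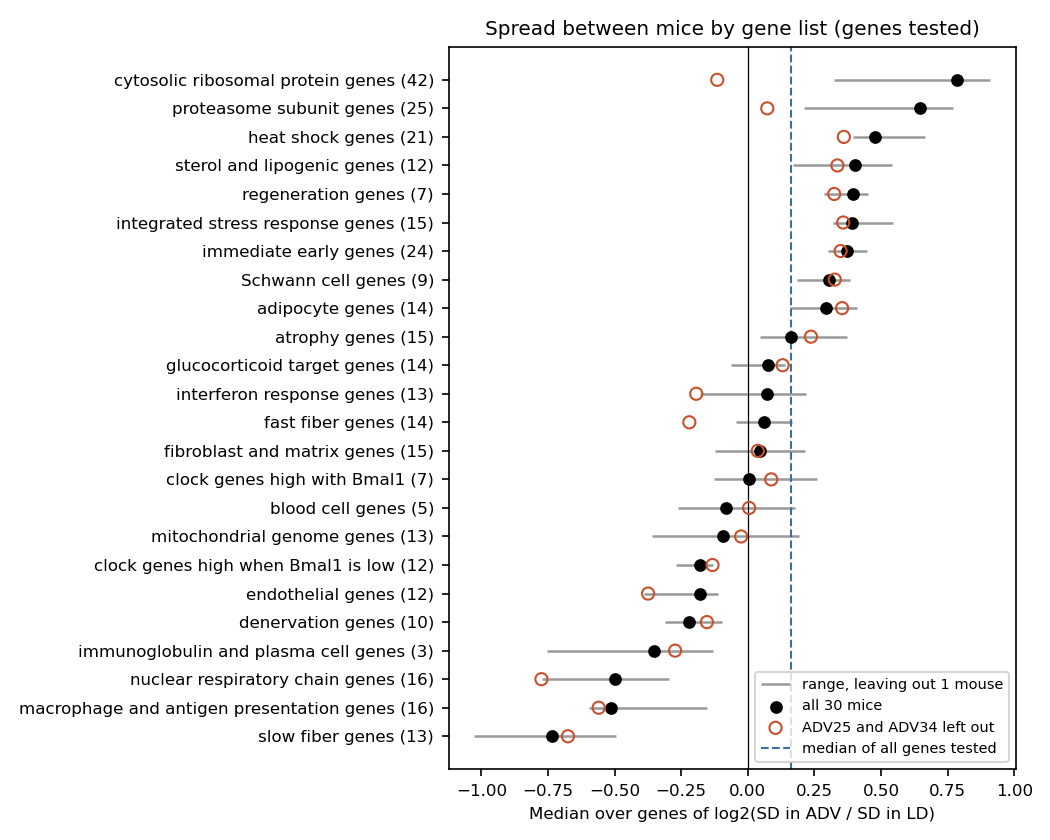
The horizontal axis is the median over genes of the log2 SD ratio (ADV over LD), and each row is 1 of the 24 gene lists with its number of genes tested. Filled points use all 30 mice, gray lines span the values with 1 mouse left out, open points leave out ADV25 and ADV34, and the dashed line is the median of all genes. The ribosomal protein and proteasome lists move from 0.78 and 0.65 to -0.11 and 0.07 without those mice, while the slow fiber list is at -0.73 and -0.68.

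Cytosolic ribosomal protein genes had the largest median ratio of the 24 lists, and it rested on 2 mice. Of 42 genes, 41 had the larger SD in ADV (62.9% of all genes) and 6 had an unadjusted p under 0.05 (4.3% of all genes), with a median log2 SD ratio of 0.78. The median was 0.32 without ADV34 and -0.11 without ADV34 and ADV25. Of the 42 genes, 10 had a higher mean in ADV at an edgeR FDR under 0.05 (5.61% of all genes) and 0 a lower one. Rps3, of the small subunit, ranged from 93.0 to 141 FPKM in ADV (median 106) and from 94.6 to 105 in LD (median 98.3). ADV34 was highest at 141 and ADV25 next at 123, and 10 ADV mice exceeded every LD mouse. For Rps3 the log2 SD ratio was 1.70 ± 0.58 (p = 0.028), and 0.60 without both mice.

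Proteasome subunit genes showed the same dependence. Of 25 genes, 24 had the larger SD in ADV (62.9% of all genes) and 1 had an unadjusted p under 0.05 (4.3% of all genes). The median log2 SD ratio was 0.65, which was 0.21 without ADV34 and 0.07 without ADV34 and ADV25. Of the 25 genes, 3 had a higher mean in ADV at an edgeR FDR under 0.05 (5.61% of all genes) and 0 a lower one. Psmb3, a subunit of the catalytic core, stood at 112 FPKM in ADV34, against an ADV median of 80.1 and an LD range of 67.6 to 81.6. Its log2 SD ratio of 1.05 ± 0.94 became -0.08 without both mice. The mean correlation among ribosomal genes was 0.82 in ADV and 0.62 in LD, and 0.49 in ADV without both mice. The part of the exon share of these mice in the result was not tested.

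ADV34 and ADV25 moved the opposite way in a module of 14 genes that includes Lcor, Rora, Usp9x, Hipk2 and Nfat5. The module was low in ADV34 (-2.56), ADV25 (-1.36) and also ADV24 (-0.92). ADV24 was not high for the ribosomal or proteasome genes, with mean log2 deviations from all mice of -0.08 and -0.11. All 14 had an SD ratio over 1 (62.9% of all genes), with a median log2 value of 1.02. The choice of these genes by their ADV values favors such ratios, and also a higher correlation in ADV. The mean correlation was 0.77 in ADV and 0.18 in LD. Without ADV34 that correlation was 0.59, and without ADV34 and ADV25 it was 0.42. The genes were long and poor in GC, with a median exon length of 4328 bases and 41.4% GC, beside 2791 bases and 50.4% over all genes tested. Once each library's trend with GC content had been removed, the log2 SD ratio was 1.16 for Lcor (1.18 before), 1.77 for Hipk2, 1.25 for Usp9x and 0.72 for Rora. Hipk2, a homeodomain-interacting kinase, was at 4.39 FPKM in ADV34 and 7.69 in ADV25, with an ADV median of 19.8 and an LD range of 17.5 to 28.6. Hipk2 had a log2 SD ratio of 1.76 ± 0.75 (p = 0.20), or 0.40 without those mice. Rora, the nuclear receptor that activates Bmal1, was at 2.75 FPKM in ADV34 and 3.96 in ADV25, below an LD range of 8.42 to 17.3, and its ratio of 1.04 ± 0.49 became 0.37.

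The largest module held 51 genes and was led by Plin1, Slc7a10, Acp5, Serpina3c and Adipoq. Lrp3 overlaps 50.2% of the exon bases of Slc7a10 on the other strand. Of the 51 genes, 7 were on the adipocyte list, and 1 each on the immunoglobulin, matrix, integrated stress response, interferon, and sterol and lipogenic lists. The module was highest in ADV24 (1.74), ADV33 (1.05) and ADV23 (1.04) and lowest in ADV29 (-1.57) and ADV30 (-1.20). Its mean correlation was 0.76 in ADV and 0.57 in LD. Adipoq, the adiponectin gene, ranged from 2.44 to 83.7 FPKM in ADV (median 19.4) and from 4.00 to 35.1 in LD (median 13.98). In ADV, 4 mice lay above the LD range and ADV29 lay below it, and the log2 SD ratio was 0.43 ± 0.39 (p = 0.40). Leptin (Lep) reached 39.6 FPKM in ADV24 and 9.02 in the highest LD mouse. Over the adipocyte list, 10 of 14 genes had the larger SD in ADV, 1 had a smaller spread at the unadjusted p, and the median was 0.29, or 0.16 without ADV29. Over all genes 62.9% had the larger SD and 2.04% a smaller spread at that p. Of the 14 adipocyte genes, 3 had a higher mean in ADV at an edgeR FDR under 0.05 (5.61% of all genes) and 0 a lower one. The summed level was 1047 to 2167 FPKM in ADV and 919 to 1400 in LD. The mean correlation of the list was 0.40 in ADV, and 0.31 without ADV24, beside 0.14 in LD. Thrsp, a regulator of lipogenesis, was at 47.6 FPKM in ADV27, against an ADV median of 8.34.

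Schwann cell genes, which mark the myelin of the nerve branches in the tissue, were the most tightly coupled list in ADV. Their mean correlation was 0.87 in ADV and 0.75 in LD, and 8 of 9 had the larger SD in ADV (62.9% of all genes). The median log2 SD ratio was 0.31 (0.18 without ADV24), with no unadjusted p under 0.05. The list summed to 29.02 to 91.2 FPKM in ADV and 26.7 to 51.8 in LD. A module of 8 genes held 2 of the list, among them Mbp, which encodes myelin basic protein, beside genes such as Lipe, the hormone-sensitive lipase of fat. It was highest in ADV24 (1.85) and lowest in ADV28 (-1.41).

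Of the other pairs, those given here were chosen after their values were seen, and neither passed the adjustment. Trim63 and Myod1, a factor of the myogenic program, had r = -0.52 (permutation p = 0.039, adjusted 0.28) and rho = -0.46 (adjusted 0.60), and r was -0.14 without the 2 mice farthest from the median of Trim63. For Myh7 and Adipoq r was 0.42 in ADV (permutation p = 0.11, adjusted 0.43), rho was 0.41 (adjusted 0.60), and r was 0.27 without the 2 mice farthest from the median of Myh7, while r in LD was -0.69. The difference between the groups in these correlations was not tested.

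Fibroblast and matrix genes had a median log2 SD ratio of 0.05 and a mean correlation of 0.48 in ADV and 0.13 in LD. In ADV the value was 0.31 without ADV24. Sparc, a matrix protein, was at 191 FPKM in ADV24, with an ADV median of 70.2 and an LD range of 47.3 to 97.9. ADV24 held 47.1% of its squared deviations.

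Atrophy and glucocorticoid genes fell into several modules rather than 1. Trim63 and Fbxo32 encode the ubiquitin ligases MuRF1 and atrogin-1. Fbxo32 ranged from 35.6 to 223 FPKM in ADV (median 87.9) and from 57.1 to 124 in LD (median 95.3). ADV35, ADV30 and ADV22 lay above the LD range, while ADV27, ADV28 and ADV24 lay below it. The log2 SD ratio was 1.05 ± 0.35 (p = 0.029, FDR = 0.77) and the log2 difference in mean was 0.07 ± 0.21 (FDR = 0.85). Trim63 ranged from 95.9 to 657 FPKM in ADV (median 216) and from 107 to 463 in LD (median 153). ADV35 and ADV30 were highest at 657 and 649, and the ratio was 0.18 ± 0.39 (p = 0.74). Over 15 atrophy genes the median was 0.16, equal to that of all genes (0.05 without ADV35), and 2 were higher at the unadjusted p (4.3% of all genes).

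Fbxo32 belonged to a module of 9 with Klhl38, Slc43a1, Chac1 and Angptl4, which was highest in ADV35 (1.42) and ADV30 (1.07) and lowest in ADV28 (-1.57) and ADV27 (-1.10). Trim63 belonged to a module of 24 led by Klf15, Galnt15, Acot2 and Ucp3, with Pdk4, Foxo1 and Nr1d1 among its members, which was highest in ADV30 (1.71), ADV35 (1.41) and ADV31 (1.12) and lowest in ADV28 (-1.14). Ucp3, the muscle uncoupling protein, differed in spread the other way at -0.89 ± 0.36 (p = 0.041), from 37.4 to 181 FPKM in ADV and from 14.1 to 257 in LD, and at -0.27 once the clock score had been removed. A module of 18 with Ddit4, Depp1, Per1, Cebpd and Sgk1 was highest in ADV30 (1.22) and lowest in ADV27 (-1.61), ADV28 (-1.48) and ADV26 (-1.17). Ddit4, an inhibitor of mTORC1, ranged from 2.18 to 47.3 FPKM in ADV and from 2.51 to 23.6 in LD.

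A module of 9 led by Fkbp5, a chaperone of the glucocorticoid receptor and its target, was highest in ADV31 (1.56), ADV34 (1.51) and ADV22 (0.99). Fkbp5 stood at 50.1 FPKM in ADV22 and 48.2 in ADV31 with an ADV median of 13.3, and it reached 54.0 in LD. Over 14 glucocorticoid target genes the median log2 SD ratio was 0.07 and the mean correlation was 0.41 in ADV and 0.58 in LD. The module of 8 with Gabarapl1, an autophagy gene, and Retreg1 was highest in ADV35 (1.46) and lowest in ADV22 (-1.24). The module of 10 with Dnase1, Odc1 and Bcl6 was lowest in ADV24 (-2.10) and highest in ADV28 (1.49).

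A single ADV mouse, ADV35, stood apart in a module of 9 genes, 1 of them on the interferon response list. The module, with Irgm2, Irgm1, Iigp1, Igtp, Cd274 and Gbp7 among its members, had a value of 3.26 in ADV35 and at most 0.32 in any other mouse. Irgm1, an immunity-related GTPase, ranged from 5.08 to 26.2 FPKM in ADV (median 6.59) and from 5.78 to 15.7 in LD (median 6.92). ADV35 held 84.0% of its squared deviations, and in LD the mouse LD31 held 78.3%. Irgm2 stood at 35.98 FPKM in ADV35 and 18.8 in LD31, with medians of 4.77 and 4.87. The log2 SD ratio of Irgm1 was 0.61 ± 2.02 and ran from -0.97 to 1.89 with single mice left out, so that its direction turned with 1 mouse. The mean correlation of the module was 0.88 in ADV and 0.58 without ADV35, and 0.78 in LD and 0.53 without LD31. Over the 13 interferon response genes the median was 0.07.

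The promoters of this module are shown for the interferon-stimulated response element, searched on both strands as a pair of GAAA units with 2 bases between them, and for the interferon-gamma activated site, TTCNNNGAA, which is its own reverse complement. The former was in 2.45% and the latter in 5.71% of all promoters, and 4 and 3 of the 5 promoters available in the module held them. Capitals mark the matches in 3 of these, at chr11:48871421-48871670 (minus strand) for Irgm1, chr11:58214727-58214976 (plus strand) for Irgm2 and chr3:142530086-142530335 (plus strand) for Gbp7, on GRCm38.p6.
Irgm1: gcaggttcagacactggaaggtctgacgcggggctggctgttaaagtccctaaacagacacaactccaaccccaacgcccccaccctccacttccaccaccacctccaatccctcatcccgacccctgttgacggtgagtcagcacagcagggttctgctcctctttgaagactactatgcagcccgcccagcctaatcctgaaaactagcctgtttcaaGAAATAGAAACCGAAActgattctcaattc
Irgm2: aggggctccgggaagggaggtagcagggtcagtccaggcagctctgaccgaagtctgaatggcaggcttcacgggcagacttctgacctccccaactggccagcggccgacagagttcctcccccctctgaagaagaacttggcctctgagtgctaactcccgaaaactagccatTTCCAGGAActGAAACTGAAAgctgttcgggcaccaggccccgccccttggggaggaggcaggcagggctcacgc
Gbp7: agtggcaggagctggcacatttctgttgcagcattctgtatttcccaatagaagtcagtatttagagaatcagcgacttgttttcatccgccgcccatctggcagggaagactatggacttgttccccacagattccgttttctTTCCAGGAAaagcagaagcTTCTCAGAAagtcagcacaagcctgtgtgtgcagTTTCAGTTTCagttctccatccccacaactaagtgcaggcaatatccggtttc

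**Figure D5:**
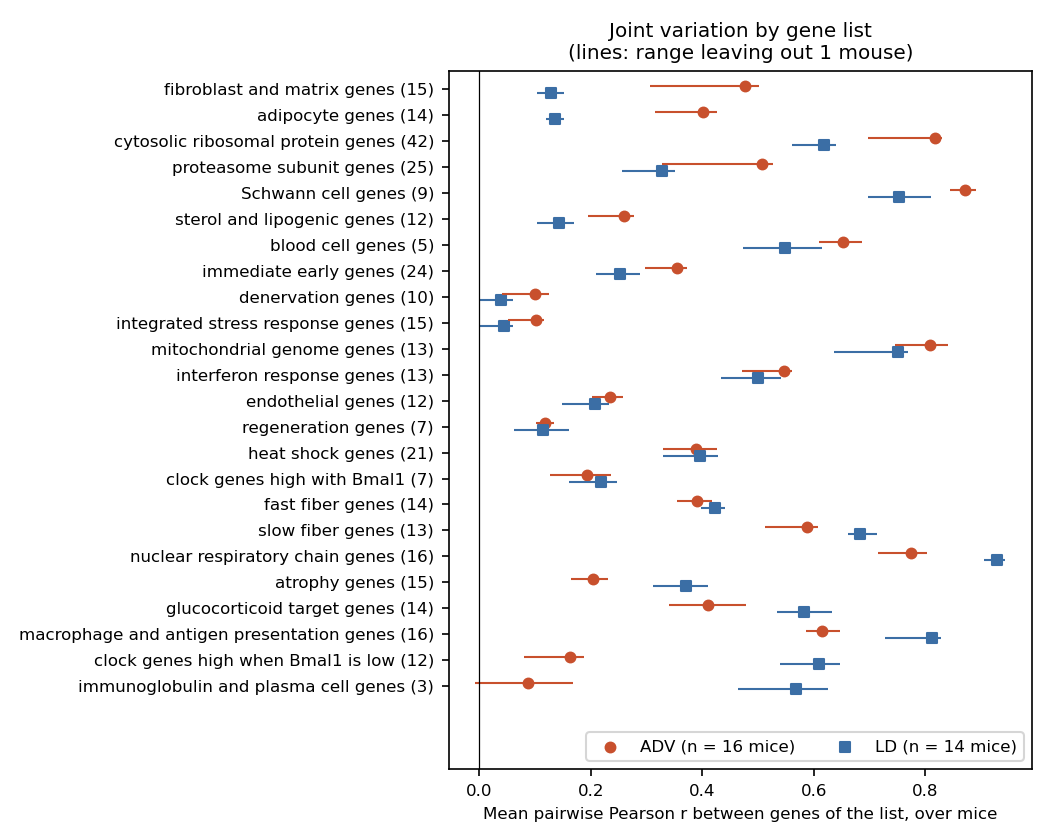
The horizontal axis gives the mean pairwise Pearson correlation between the genes of a list, and each row is 1 list with its number of genes tested. Circles are ADV (n = 16 mice), squares are LD (n = 14 mice), and lines span the values with 1 mouse left out. The clock genes that peak when Bmal1 is low are at 0.16 in ADV and 0.61 in LD, and the fibroblast list is at 0.48 and 0.13.

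The remaining lists had medians on both sides of that of all genes (0.16), with at most 2 genes in either direction at an unadjusted p under 0.05. Over all genes 62.9% had the larger SD in ADV, and 4.3% were higher and 2.04% lower at that p. Sterol and lipogenic genes had a median log2 SD ratio of 0.40 (10 of 12 larger in ADV), which was 0.17 without ADV27. Regeneration genes had 0.39 (5 of 7) and integrated stress response genes 0.39 (11 of 15, 2 of them higher at the unadjusted p). In both lists some means were higher too, 4 regeneration and 5 integrated stress response genes at an edgeR FDR under 0.05 (5.61% of all genes). At that FDR 3 endothelial genes and 1 denervation gene also had a higher mean, and 0 genes of these 4 lists a lower one. Denervation genes had -0.22 (3 of 10, 1 lower at the unadjusted p), endothelial genes -0.18 (2 of 12) and blood cell genes -0.08 (2 of 5). No marker of any listed cell type was at 0 in every mouse.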

How the data were processed

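Muscle RNA of 16 ADV and 14 LD mice was analysed, 1 library per mouse, with groups taken from the sample labels. The authors mapped the reads to GRCm39 with STAR 2.7.10a and deposited estimated counts for each transcript from HOMER 4.11 (versions per the submitters' processing notes). HOMER gives each mate 0.5 read, which left 14.83% of the values with a fraction, and these were rounded for the tests. FPKM values were computed by the authors from the same counts, exon length and the HOMER library total. Whether the counting used strand is not given in the sources used here. For a symbol on several rows the longest expressed row was used.

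The filter required an average above 20 reads and above 0.5 FPKM, which 12030 genes met. Log2 CPM was computed with edgeR 4.0.16 in R 4.3.3 (TMM, prior count 2). Spread was compared with limma 3.58.1 on absolute deviations from the group median, scaled for group size, with Benjamini-Hochberg adjustment over all genes. Means were compared with edgeR's quasi-likelihood F test. FDR under 0.05 was the threshold. SD ratios are of log2 CPM, with a jackknife SE over the 30 mice. At these depths the median gene had a counting SD of 0.0777 on the log2 scale. Library properties and pairs of genes were compared by two-sided permutation tests with 100000 resamples (scipy 1.17.1). Modules are average-linkage clusters of 1 minus Pearson r, ended at 0.5.

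The genes named include the 10 of smallest p in each direction (none was called), taken from genes whose direction held without each single mouse. The others are up to 4 members of each of 24 lists by SD ratio or ADV SD, and the 5 central genes of each module. The 8 genes of the pairs, and genes that overlap any of these, are named too. Some results are not reported here. Other module members were named after their values were seen, and so were motif matches. The mice, the lists and the 8 genes of the pairs were chosen with earlier results of these data known. Exon overlaps and GC content came from GENCODE transcripts (99.9% of genes had a GC value), and promoters from RefSeq on GRCm38.p6.

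Alternatives were another prior count, library size or DESeq2 1.42.0 size factors, log2(FPKM + 0.1) and log2(FPKM + 1), variance stabilized counts, squared deviations, a rank test, other filters, a replicate block, removal of a GC trend or of a clock score fit, DESeq2's Wald test for means, and leaving out each mouse. Leaving out ADV25 with ADV34, or ADV34 with LD23 and LD33, and the 28 libraries without the block were chosen after seeing the data. The tests across genes were also run on simulated data.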

Additional observations from a re-analysis of the deposited data

How the results depend on the processing

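The number of genes called for spread at an FDR under 0.05 was 0 in both directions under every alternative and with each mouse left out. At an unadjusted p under 0.05, genes with a larger spread in ADV (517) numbered 303 with a replicate block over the 28 libraries of shared label number (ADV24 and ADV25 dropped), 302 in those libraries without the block and 310 without ADV25 and ADV34, and genes with a smaller spread (245) numbered 139 without ADV34, LD23 and LD33. With single mice left out these counts ran from 357 (without ADV25) to 568 and from 140 (without LD33) to 317 (without ADV34). The median log2 SD ratio (0.16) was -0.00461 without ADV25 and ADV34, and 0.0656 (without ADV34) to 0.221 (without LD33) with single mice left out. For the mean, the counts of higher and lower genes (675 and 626) were 174 and 78 with a fold change over 1.3, 287 and 207 with the replicate block, 418 and 327 without ADV25 and ADV34, 874 and 805 with DESeq2, and 439 to 776 and 396 to 766 with single mice left out, lowest without LD28 and highest without ADV30. Of the 28 pairs, 2 passed with all mice, 0 without ADV25 and ADV34, and 0 (without ADV25) to 3 (without ADV23) with single mice left out. The 20 named genes of smallest p kept their direction in all of their 800 alternatives, and none passed the adjustment. They were chosen to keep it with each single mouse left out, so those alternatives could not have turned it. Medians near 0, those of the fast fiber, fibroblast, interferon, glucocorticoid, blood cell, mitochondrial genome and Bmal1-phase clock lists, changed sign with 1 mouse left out. The 14 pairs of mice with equal label number correlated at -0.261 to 0.429 (median 0.011), 6 of them over 0.1. Of the LD mice, 3 correlated best with their own number. Whether equal numbers mark mice handled together was not tested. The cause of the changes under the alternatives above was not tested either. A gene near the minimum of 20 reads carries a large counting error, and differences in its spread may not be detectable at this depth.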
